A study of Mus musculus with 18 samples.

Results

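The comparison described here set 4 libraries of mouse embryonic fibroblasts (MEFs) that had received 30 µM uracil against 4 libraries of MEFs grown without added uracil, each pair compared within its own replicate number. MEFs are connective-tissue cells grown out from mouse embryos. The series holds 18 total-RNA libraries, 6 each at 0, 10 and 30 µM uracil, numbered 1 to 6, and all cells were harvested 24 h after plating in full growth medium with serum. The control and the 30 µM libraries of numbers 2, 3, 4 and 5 were used, which makes 8 of the 18. Numbers 1 and 6 were left out because over 5% of read pairs were unaligned in the control of number 1 (54.2%) and in the 30 µM library of number 6 (37.9%). The study itself dropped 1 vehicle and 1 30 µM sample for contamination with human RNA and does not give their numbers. The study's methods call the libraries of a condition biological replicates. Whether a number marks 1 embryo, culture or harvest shared by its libraries is not given, nor is the genotype, sex or strain of the embryos, and every p-value here measures the spread between these libraries.

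Uracil is the base released from uridine by uridine phosphorylase-1, the product of Upp1, in pyrimidine salvage. Fibroblasts secrete fibronectin and assemble it into a fibrillar matrix at the cell surface, mainly through α5β1 integrin, which is encoded by Itga5 and Itgb1 and is carried in and out of the cell by endosomal recycling. The comparison asks whether uracil added from outside changed the transcriptome of the cells that build this matrix.

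The 8 libraries held 12.2 to 20.8 M gene counts each, and 1.96% to 3.59% of their read pairs were unaligned. After a filter on low counts, 13582 genes were tested. Fibroblast markers were abundant, with a summed level of 27280 to 30380 CPM (counts scaled to a common library size, with TMM factors) in the control libraries and 27250 to 30500 CPM at 30 µM, led by Col1a2, Col1a1 and Vim, and 1 of the 15 markers, Tcf21, had no count. Macrophage and blood markers summed to 4.00 to 7.81 CPM in the controls and 2.91 to 6.79 CPM at 30 µM, with the haemoglobin genes Hba-a1 and Hbb-bt at 0, while epithelial and mesothelial markers summed to 118 to 290 CPM and 117 to 333 CPM. Neural markers summed to 399 to 538 CPM and 383 to 520 CPM, led by Map2, Nes and Stmn2. Of the 12 neural markers 8 averaged under 1 CPM, and Elavl3, Olig1 and Olig2 had no count. Endothelial markers summed to 34.1 to 41.4 CPM and 31.0 to 44.1 CPM, and skeletal muscle markers to 30.9 to 39.5 CPM and 33.7 to 40.1 CPM. For adipocyte and cartilage markers the sums were 24.3 to 42.8 CPM and 24.5 to 45.2 CPM. The ranges of the groups overlapped for all 7 marker lists. The differences of number 4 ran against those of numbers 2, 3 and 5 for most genes, so results that rest on number 4 are also given without it. In such bulk samples, fewer cells of a type and less RNA per cell cannot be told apart.

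No gene differed between 30 µM uracil and control past an adjusted p of 0.05 (0 of 13582 genes, 0%) in edgeR's quasi-likelihood test with the number as a block and Benjamini-Hochberg adjustment, where the smallest adjusted p was 0.931. At an unadjusted p under 0.05 there were 482 genes (3.55%), of which 191 were higher (1.41%) and 291 lower (2.14%) at 30 µM. DESeq2 and limma voom on the same 8 libraries also called 0 genes after adjustment, and put 86 (14 higher and 72 lower) and 520 (187 and 333) below an unadjusted p of 0.05. The sizes were small. The 95% interval of the log2 fold change lay within a 1.5-fold change in either direction for 11817 genes (87%) and within 2-fold for 13288 (97.8%). The estimate itself was beyond 2-fold for 5 genes and beyond 1.5-fold for 80.

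Fn1, which encodes fibronectin, ranked 7th of all tested genes by mean CPM. It lies on chromosome 1 (71624673 to 71692419, minus strand, GRCm39). In numbers 2 to 5 it stood at 7861, 9427, 6454 and 7067 CPM in the controls and at 7277, 7410, 7270 and 6415 CPM at 30 µM. It was lower at 30 µM in numbers 2, 3 and 5 and higher in number 4, and the groups overlapped. The means were 7702 ± 1286 CPM and 7093 ± 457 CPM (SD, n = 4 each). The log2 fold change was -0.11 ± 0.07 (SE, 95% interval -0.26 to 0.04, edgeR adjusted p = 0.931). Without number 4 it was -0.20 ± 0.05 with an edgeR adjusted p of 0.0134, and without number 3 it was -0.03. With numbers 1 and 6 added it was -0.06.

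The receptor chains differed less. Itga5, the α5 chain (chromosome 15, 103252713 to 103275270, minus strand), stood at 215, 230, 159 and 137 CPM in the controls of numbers 2 to 5 and at 202, 204, 162 and 142 CPM at 30 µM. Both groups followed the same order, with numbers 2 and 3 above numbers 4 and 5, and the log2 fold change was -0.05 ± 0.05 (SE, 95% interval -0.16 to 0.06). Itgb1, the β1 chain shared by many integrins (chromosome 8, 129411876 to 129460618, plus strand), stood at 1356, 1361, 1207 and 1094 CPM in the controls and at 1378, 1321, 1221 and 1096 CPM at 30 µM. Its log2 fold change had a 95% interval of -0.10 to 0.10. Tfrc, the transferrin receptor and a standard cargo of endosomal recycling, stood at 119, 119, 125 and 117 CPM and at 115, 124, 125 and 106 CPM, with a log2 fold change of -0.03 ± 0.05 (SE). For Itga5, Itgb1 and Tfrc the edgeR adjusted p-values were 0.931 or above, and in all 3 the groups overlapped.

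Upp1 was close to the limit of detection in these cells and did not pass the filter on low counts. The controls of numbers 2 to 5 held 6, 20, 7 and 6 read pairs of Upp1 and the 30 µM libraries held 15, 14, 7 and 5. The mean level was 0.580 ± 0.281 CPM in control and 0.705 ± 0.315 CPM at 30 µM (SD, n = 4 each), so the groups overlapped, and counts this low could not show a difference.

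**Figure D1:**
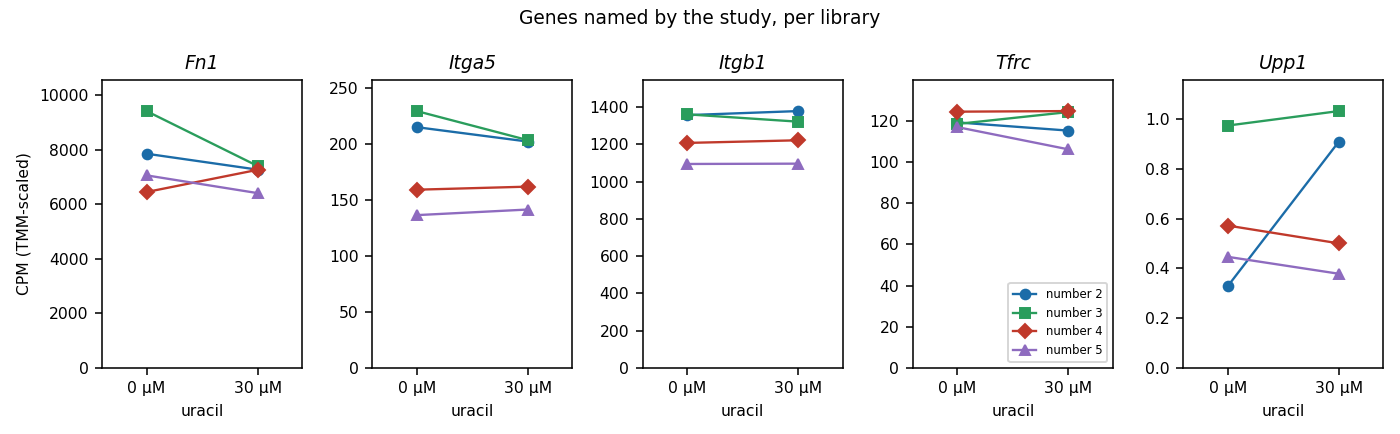
Level of Fn1, Itga5, Itgb1, Tfrc and Upp1 in each library (y axis, TMM-scaled CPM from 0) without and with 30 µM uracil (x axis), with lines joining the libraries of a replicate number. The lines of Fn1 fall in numbers 2, 3 and 5 and climb in number 4 (6454 to 7270 CPM), and the levels of the other 4 genes overlap between the groups.

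A gene that moved the same way in every number was then looked for. At 30 µM, 750 genes were higher in 4 of 4 numbers (5.52%) and 664 were lower in 4 of 4 (4.89%), together 10.4% of those tested. In 83 genes (0.611%) every 30 µM library was above every control, and in 75 (0.552%) every one was below. The genes described next, 10 higher and 9 lower, were among those with the smallest p of the genes that moved one way with a mean of at least 1 CPM. They had unadjusted p-values of 0.000969 to 0.00789 and an edgeR adjusted p of 0.931 each. These 19 were picked from all genes for their p and direction, so their values are a description and none passed the adjusted threshold.

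The 10 higher genes have varied roles. Eme1, the partner of Mus81 in an endonuclease that cuts recombination intermediates and stalled forks (chromosome 11, 94535822 to 94544812, minus strand), stood at 9.07, 10.6, 10.3 and 10.2 CPM in the controls and at 12, 12.2, 12.4 and 15.3 CPM at 30 µM. The groups did not overlap, and the log2 fold change was 0.36 ± 0.09 (SE). Nudt16, a hydrolase of inosine nucleotides and RNA caps, went from 6.72, 6.38, 6.21 and 5.65 CPM to 8.18, 7.88, 7.86 and 7.49 CPM, without overlap, and its 4 differences were alike, at 0.28, 0.30, 0.33 and 0.40 on the log2 scale. Xdh, the enzyme of the last steps of purine breakdown to urate, stood at 12, 11.7, 17.9 and 18.3 CPM and at 16.1, 12.2, 20.9 and 22.9 CPM. Here the numbers differed more than the doses, and the log2 fold change was 0.27 ± 0.08 (SE). Cpsf4, a subunit of the factor that cleaves and polyadenylates mRNA, averaged 27.2 ± 3.22 CPM without uracil and 31.4 ± 3.12 CPM with it (SD, n = 4 each).

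Of the other 6 higher genes, 3 more had groups without overlap. Rnf25, a ubiquitin ligase, stood at 25.8, 25.7, 26.3 and 24.3 CPM in the controls and at 31.0, 29.8, 28.4 and 31.6 CPM at 30 µM, without overlap (log2 fold change 0.24 ± 0.07, SE). Stard3nl, a protein of late endosomes that tethers them to the endoplasmic reticulum, stood at 40.9, 39.7, 38.6 and 36.4 CPM and at 43.9, 44.9, 42.5 and 46.4 CPM, also without overlap (0.19 ± 0.06). Dpysl4, a dihydropyrimidinase-like protein of the cytoskeleton, was scarce, at 1.15, 1.80, 0.898 and 0.669 CPM and at 1.70, 2.43, 1.72 and 1.66 CPM. Its log2 fold change of 0.71 ± 0.23 (SE) was the largest of the 10. The others were the zinc finger gene Zfp12 (0.21 ± 0.07), the pseudogene Gm10243 (0.58 ± 0.18) and Gm24888, a small nucleolar RNA inside Rpl27a (0.36 ± 0.11). When numbers 1 and 6, left out above for their unaligned pairs, were added, the log2 fold change of Gm24888 was -0.093, below 0. Those of Gm10243, Nudt16 and Stard3nl shrank to 0.29, 0.21 and 0.05.

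Of the 9 lower genes, Tbc1d14 belongs to a family that switches off Rab GTPases and acts on recycling endosomes and in autophagy. It lies on chromosome 5 (36647947 to 36750670, minus strand) and stood at 15.2, 20.1, 13.2 and 16.5 CPM in the controls and at 11.3, 13.2, 12.9 and 12.2 CPM at 30 µM. The difference was -0.42, -0.60 and -0.43 in numbers 2, 3 and 5 but -0.02 in number 4, and the log2 fold change was -0.38 ± 0.10 (SE). Zfp326, a splicing and elongation factor, had the same pattern, at 22.1, 22.1, 19.4 and 20.6 CPM and at 17.5, 16.5, 19.2 and 13.8 CPM (-0.33 ± 0.09). Smim30, a small membrane protein, was at 40.9, 40.8, 33.2 and 37.3 CPM and at 34.0, 33.9, 32.5 and 29.8 CPM (-0.22 ± 0.07). Without number 4, the edgeR adjusted p was 0.00231 for Tbc1d14, 0.0035 for Zfp326, 0.0121 for Smim30 and 0.0236 for Arid4b, a subunit of a histone deacetylase complex. Of the 10 higher genes, Eme1 (0.0334) and Rnf25 (0.0293) also passed then. That fit used a part of the libraries that chose these genes, which favours them, and 3.24% of all genes passed in it.

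The other lower genes, all likewise picked for being lower in every number, included Tex9. It stood at 7.48, 6.91, 8.25 and 7.96 CPM in the controls and at 6.06, 4.57, 6.15 and 6.35 CPM at 30 µM, without overlap (log2 fold change -0.41 ± 0.11, SE). Radx, which binds single-stranded DNA at replication forks, stood at 2.57, 2.24, 2.70 and 3.64 CPM and at 2.06, 1.11, 1.93 and 2.12 CPM (-0.62 ± 0.19). The control and 30 µM ranges did not overlap in Radx either. Slfn9, of the Schlafen family, went from 5.68, 4.58, 3.51 and 2.08 CPM to 3.94, 3.09, 2.64 and 1.21 CPM (-0.54 ± 0.15). Scml2, a Polycomb-group gene (-0.93 ± 0.26), and the collagen gene Col28a1 (-0.94 ± 0.27) averaged 1.72 and 1.48 CPM in control and 0.908 and 0.758 CPM at 30 µM, and with numbers 1 and 6 added the log2 fold change of Col28a1 was -0.48. Eme1, Rnf25, Tex9 and several others of the 19 overlap a gene on the other strand (for these 3, Lrrc59 and Mrpl27, Bcs1l, and Mns1, respectively), and as the strand setting of the counting is not stated, reads of such partners cannot be told apart.

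**Figure D2:**
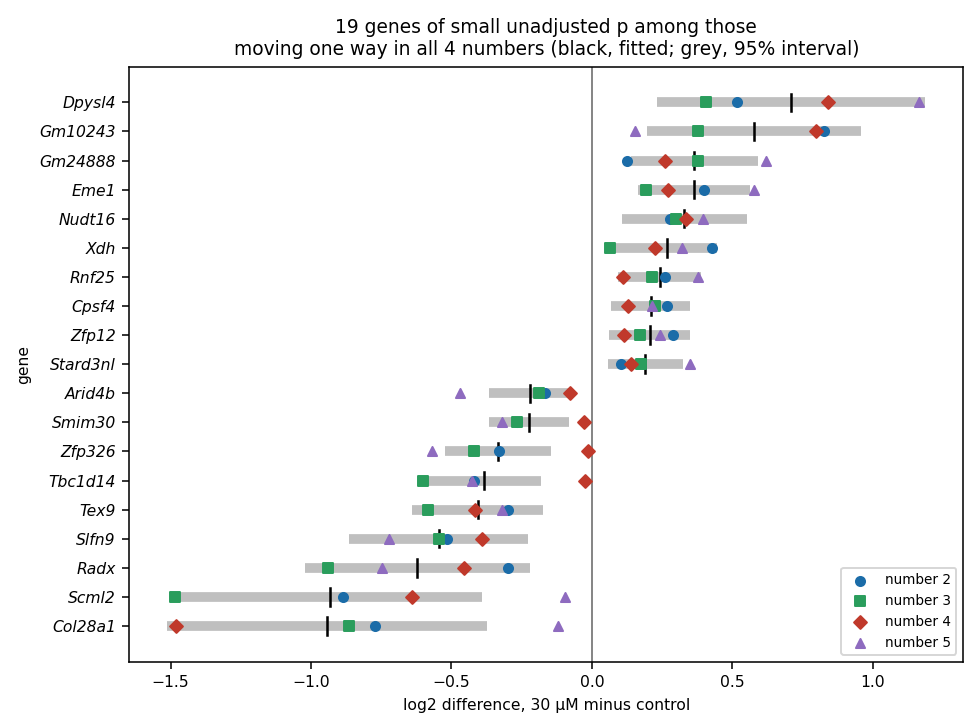
Log2 difference between 30 µM and control (x axis) within each replicate number (coloured symbols) for these 19 genes (y axis), with the fitted log2 fold change as a black line and its 95% interval in grey. All symbols of a gene lie on 1 side of 0 because the genes were picked for that, and in Tbc1d14, Zfp326 and Smim30 the symbol of number 4 is next to 0.

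Processes were described with 46 gene lists, which together held 1191 tested genes. Of these, 15 were higher and 23 lower at an unadjusted p under 0.05, or 3.19%, beside 3.55% of all genes, and 0 passed the adjusted p. There were 49 higher (4.11%) and 40 lower (3.36%) in 4 of 4 numbers, beside 5.52% and 4.89% of all genes. In 21 lists no member reached an unadjusted p of 0.05, and no list had more than 3 that did. Apart from the mitochondrially encoded genes, all list medians of the log2 fold change lay between -0.06 and 0.05, against 0.00 for all genes. Over all 13582 genes tested, 6962 estimates were higher and 6620 lower, which is the background for the counts of estimates in the lists below.

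Matrix genes showed no common direction that held in all numbers. The 17 genes of the fibronectin matrix and its receptor had 6 higher and 11 lower estimates, 0 at an unadjusted p under 0.05, and a median log2 fold change of -0.01. Of the 13 fibrillar and associated collagens tested, 11 estimates were higher and 2 lower, with a median of 0.04 and again 0 at an unadjusted p under 0.05. Their median difference was -0.00, 0.06, -0.07 and 0.19 in numbers 2 to 5, so that number 5 was high and number 4 low. Col3a1, a fibrillar collagen chain, stood at 4536, 4009, 4167 and 3773 CPM in the controls and at 4614, 4320, 4022 and 4634 CPM at 30 µM, while Col1a1 stood at 8550, 8868, 6870 and 8413 CPM and at 7473, 7807, 7715 and 8879 CPM. Basement membrane genes (17 tested, 14 higher estimates, median 0.04) and collagen processing and cross-linking (20 tested, 15 higher, median 0.04) had 0 members each at an unadjusted p under 0.05. Of 21 proteoglycan and hyaluronan genes 2 reached it, both lower, and the one with the smallest p was Cd44, the hyaluronan receptor, at 204, 235, 167 and 158 CPM in control and 192, 184, 178 and 131 CPM at 30 µM.

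In adhesion and trafficking, 3 of 27 focal adhesion genes and 2 of 46 endosomal recycling genes were lower at an unadjusted p under 0.05, and 1 endosomal gene was higher. Dab2, an adaptor that brings integrins into clathrin-coated pits, was lower in all 4 numbers, at 36.5, 39.9, 34.6 and 35.2 CPM in control and 34.7, 32.9, 32.5 and 30.5 CPM at 30 µM (log2 fold change -0.16 ± 0.07, SE, edgeR adjusted p = 0.931). Ehd3, which acts in the recycling of endosomal cargo, stood at 10.7, 8.37, 10.2 and 8.25 CPM and at 10.3, 10.9, 11.1 and 11.6 CPM (0.22 ± 0.10). The median over the 46 endosomal genes was 0.00.

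Genes of pyrimidine metabolism, the pathway that uracil belongs to, had 1 higher and 1 lower member of 10 in de novo synthesis at an unadjusted p under 0.05 and 0 of 16 in the salvage, transport and breakdown of uridine and uracil. Dhodh, the mitochondrial enzyme of de novo synthesis, stood at 17.3, 19.2, 18.9 and 19.6 CPM in the controls and at 19, 21.6, 18.9 and 25.9 CPM at 30 µM. Cmpk1, the kinase of UMP and CMP, was lower in all 4 numbers, at 80.2, 73.9, 74.8 and 67.8 CPM and at 69.3, 68.9, 71.2 and 57.6 CPM (log2 fold change -0.15 ± 0.05, SE, edgeR adjusted p = 0.931). The genes of thymidylate supply and of uracil removal from DNA had 15 higher and 7 lower estimates of 22 and a median of 0.03, and purine synthesis and salvage had 2 higher of 17 at an unadjusted p under 0.05, 1 of them Xdh.

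Several lists of growth and energy had a like pattern by number. Estimates were higher for 27 of 34 genes of S phase and DNA replication, 32 of 46 ribosomal proteins of the large subunit, 50 of 76 nuclear-encoded genes of the respiratory chain and 33 of 47 replication-dependent histones, with medians of 0.05, 0.02, 0.02 and 0.03. The median difference of the large ribosomal subunit was 0.09, 0.07 and 0.06 in numbers 2, 3 and 5 and -0.11 in number 4. For the histones it was 0.09, 0.08 and 0.11 against -0.15, and for the respiratory chain 0.07, 0.08 and 0.03 against -0.08. In each, number 4 had the opposite sign. Nuclear long noncoding RNAs (16 of 24 lower, median -0.06), splicing factors (25 of 40 lower, -0.02) and TGF-beta ligands, receptors and targets (14 of 22 lower, -0.04) leaned the other way. Of the 46 lists, 20 had medians above 0 in numbers 2, 3 and 5, and 18 of those were below 0 in number 4. Another 5 were below 0 in numbers 2, 3 and 5, and 4 of those were above 0 in number 4. All 4 medians were above 0 in 2 lists (oxidative stress genes of Nrf2, and YAP and TEAD targets) and below 0 in 1 (nuclear long noncoding RNAs), and the lists share libraries and some genes, so these counts are a description.

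Within the growth lists, single members reached an unadjusted p under 0.05. Cdc20, an activator of the anaphase-promoting complex, stood at 122, 134, 134 and 132 CPM in the controls and at 135, 149, 131 and 154 CPM at 30 µM, 1 of 30 genes of G2 and mitosis. Rps10, 1 of 33 small-subunit ribosomal proteins, was at 198, 208, 195 and 192 CPM and at 201, 180, 165 and 174 CPM. Gar1, a protein of the snoRNPs that modify ribosomal RNA, was at 12.6, 10.9, 8.41 and 14.1 CPM and at 8.60, 8.33, 10.1 and 7.41 CPM, lower at 30 µM except in number 4. H4c14, a histone H4 gene, was at 65.8, 66.4, 89.9 and 86.5 CPM and at 75.1, 81.9, 87.8 and 108 CPM, higher except in number 4. The edgeR adjusted p of Cdc20, Rps10, Gar1 and H4c14 was 0.931.

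Stress and lipid lists held few such members. In the unfolded protein response 2 of 23 genes were lower at an unadjusted p under 0.05, among them Dnajb9, a chaperone partner of the endoplasmic reticulum, at 11.1, 10.5, 9.72 and 9.96 CPM in the controls and 8.54, 9.80, 9.15 and 6.12 CPM at 30 µM. In the Atf4 and amino acid response Cebpb, a transcription factor, was higher and Slc38a2, an amino acid transporter, lower, of 28 genes with a median of 0.02. Heat shock proteins (19 tested, 1 lower, median 0.02) and cholesterol synthesis (24 tested, 1 lower, median -0.00) were close to all genes. Glycolysis and hypoxia response had 21 of 31 higher estimates, a median of 0.05 and 0 members at an unadjusted p under 0.05. Its median difference by number was 0.05, 0.02, -0.02 and 0.12. Fatty acid oxidation had 15 of 19 higher estimates, a median of 0.04 and 0 members at an unadjusted p under 0.05, and its median difference by number was 0.08, 0.10, -0.07 and 0.09.

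Signalling lists were also near 0. Of 22 TGF-beta genes 1 was lower at an unadjusted p under 0.05 (Skil, a repressor of Smad proteins, log2 fold change -0.12 ± 0.05, SE), and of 21 contractile and SRF targets 1 was lower. That was Cald1, the actin-binding caldesmon, at 1266, 1249, 1109 and 1079 CPM in the controls and 1086, 1129, 1180 and 919 CPM at 30 µM, higher in number 4 alone. Gadd45b, in the list of YAP and TEAD targets, was higher in all 4 numbers, at 36.9, 40.9, 46.5 and 46.7 CPM and at 42.2, 45.1, 46.9 and 58.1 CPM. Immediate early genes (31 tested, 22 lower estimates, 0 called, median -0.03), chemokines and cytokines (27 tested, 0 called, median -0.00) and interferon-stimulated genes (26 tested, 1 higher, median 0.03) were further lists of this kind. Sox9, a transcription factor of cartilage that was counted as a marker, was lower in all 4 numbers, at 6.66, 9.64, 5.80 and 6.17 CPM and at 5.94, 6.93, 4.36 and 4.61 CPM. The adipocyte and cartilage markers as a list had 3 higher and 2 lower estimates of 5 tested, with a median of 0.05. Col2a1, of the same list, was higher in numbers 2, 3 and 5 and lower in number 4 (log2 fold change 0.20 ± 0.12, SE). Without number 4, the log2 fold change of Col2a1 was 0.34 with an edgeR adjusted p of 0.0436.

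**Figure D3:**
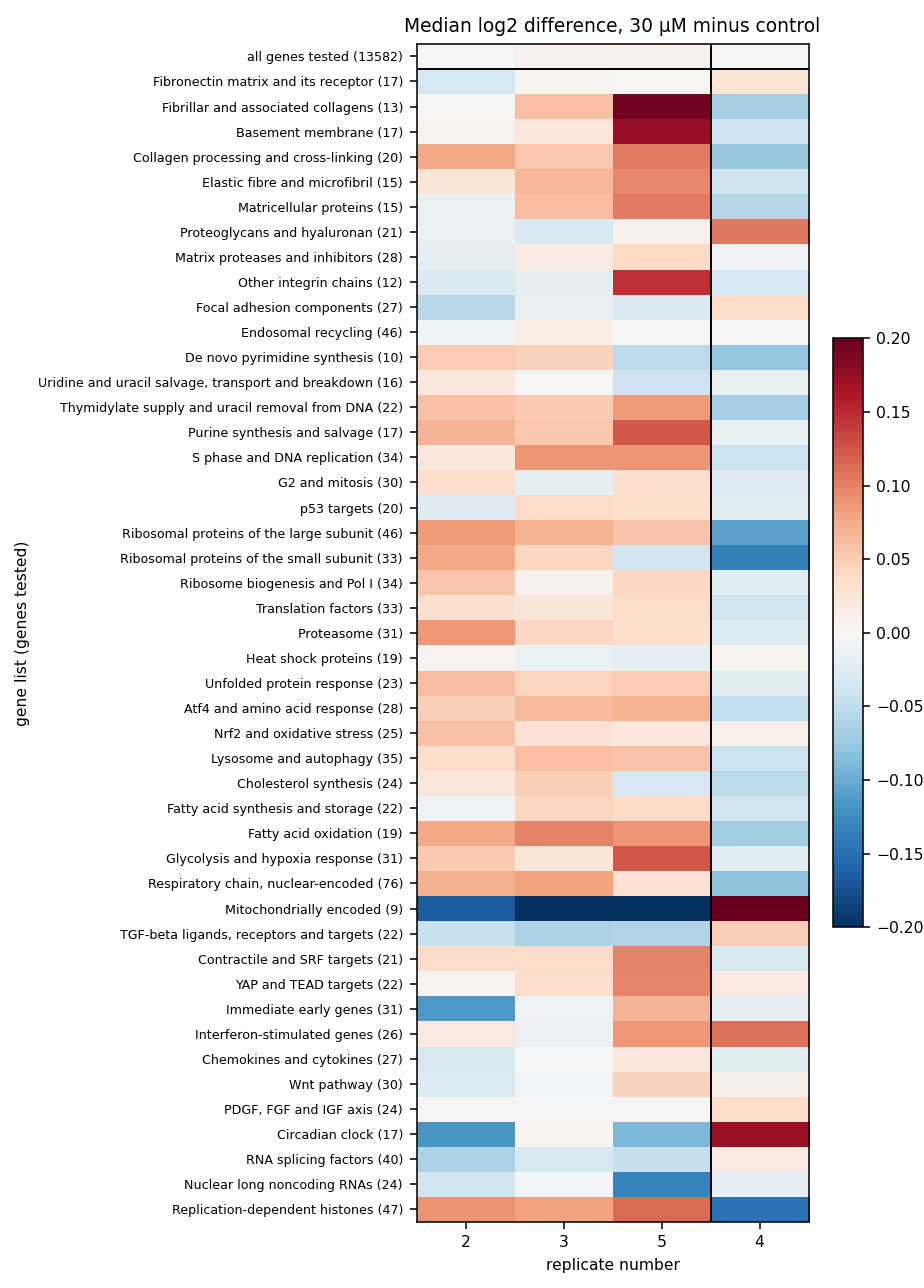
Median log2 difference between 30 µM and control for each gene list (rows, with the number of genes tested) in replicate numbers 2, 3, 5 and 4 (columns), where red is higher and blue lower at 30 µM and colours end at -0.2 and 0.2. Of the 20 lists that are red in numbers 2, 3 and 5, 18 are blue in number 4, as the histones are (0.09, 0.08 and 0.11 against -0.15).

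The opposite direction of number 4 was seen across the transcriptome. Between numbers 2, 3 and 5, the direction of the difference was the same for 60.7% to 60.8% of the 13582 genes, and Pearson's r over genes was 0.22 (2 and 3), 0.19 (2 and 5) and 0.15 (3 and 5). Between number 4 and any of these, only 37.8% to 39.5% of genes had the same direction, and r was -0.16, -0.21 and -0.15. Of 2890 genes higher at 30 µM in numbers 2, 3 and 5, 2140 (74%) were lower in number 4, and of 2689 lower ones 2025 (75.3%) were higher. Genes share their libraries and are not independent replicates, so these values are given as a description. Both libraries of number 4 were used as labelled. An exchange of their labels would turn the sign of each number 4 difference, and whether one took place was not tested. In size, number 4 was not unusual, as the SD of the differences over genes was 0.235, 0.254, 0.264 and 0.303 in numbers 2 to 5.

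**Figure D4:**
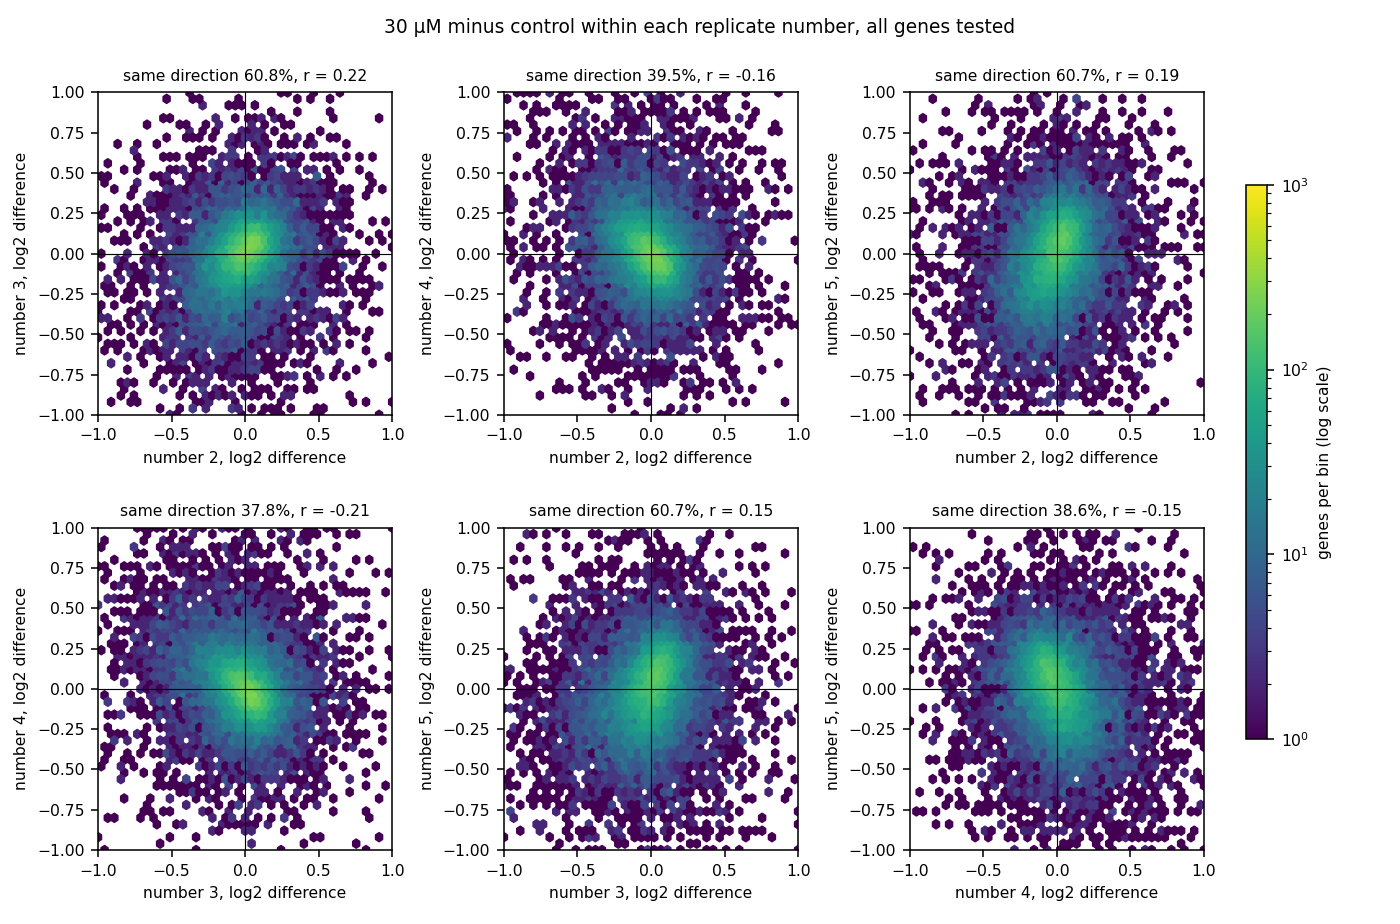
Each panel sets the log2 difference between 30 µM and control in 1 replicate number (x axis) against another (y axis) for 13582 genes, with the number of genes per bin on a log colour scale and axes shown from -1 to 1. The clouds tilt upwards among numbers 2, 3 and 5 (r of 0.15 to 0.22) and downwards in the 3 panels with number 4 (r of -0.21 to -0.15).

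Without number 4, and so with 3 libraries a group, 447 of 13789 genes (3.24%) passed an adjusted p of 0.05 in edgeR with the number as a block, of which 48 were higher (0.348%) and 399 lower (2.89%) at 30 µM. Number 4 had the opposite direction in 46 of the 48 and in 386 of the 398 lower genes tested in all 8 libraries. The median log2 fold change was 0.20 for the higher and -0.29 for the lower genes, and the median difference of the same genes in number 4 was -0.11 and 0.22. Leaving out number 2, 3 or 5 instead left 0 genes past the adjusted p (215, 299 and 252 at an unadjusted p under 0.05). The 447 calls thus rest on leaving out number 4, 1 of the 4 fits that each left out a number, and this fit is described further because of its result. Without the block 0 genes passed in the same 6 libraries (884 at an unadjusted p under 0.05).

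The genes of that comparison given here have small p-values and were named after their values were seen. Taf15, an RNA-binding protein of the FET family, stood at 33.3, 32.1 and 30.8 CPM in the controls of numbers 2, 3 and 5 and at 20.2, 16.9 and 17.5 CPM at 30 µM. In number 4 it was at 14.8 CPM without uracil and 24.3 CPM with it, the reverse order. Eif5b, a translation initiation factor, stood at 60.7, 66.4 and 55.8 CPM and 44.1, 43.0 and 32.8 CPM, and in number 4 at 38.9 and 50.9 CPM. Hnrnpa2b1, which binds pre-mRNA, stood at 321, 328 and 289 CPM and 248, 264 and 205 CPM, and in number 4 at 222 and 265 CPM. The log2 fold changes without number 4 were -0.82 ± 0.08, -0.61 ± 0.06 and -0.39 ± 0.05 (SE), and over all 4 numbers they were -0.48 ± 0.35, -0.37 ± 0.23 and -0.23 ± 0.14. Neat1, the scaffold RNA of paraspeckles, was at 78.0, 90.0, 67.7 and 77.7 CPM in the 4 controls and 59.6, 63.5, 84.6 and 60.0 CPM at 30 µM.

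Furin and Ecm1 were in the same set. Furin, a protease that matures secreted proproteins, stood at 120, 126 and 109 CPM in the controls of numbers 2, 3 and 5 and at 85.8, 87.6 and 84.5 CPM at 30 µM, and in number 4 at 69.6 and 97.4 CPM. Ecm1, a secreted matrix glycoprotein, stood at 64.3, 62.9 and 42.8 CPM and at 42.7, 37.0 and 32.0 CPM, and in number 4 at 32.9 and 55.4 CPM. Both fell without number 4 (log2 fold change -0.46 ± 0.05 and -0.60 ± 0.07, edgeR adjusted p = 4.75e-06 and 4.41e-06). Of the higher genes, Prpf19, a core ubiquitin ligase of the spliceosome, stood at 171, 171 and 186 CPM and at 186, 226 and 245 CPM, and in number 4 at 234 and 184 CPM. Igfbp2, a binding protein of insulin-like growth factors, stood at 49.7, 46.6 and 70.6 CPM and at 54.5, 57.8 and 90.2 CPM, and in number 4 at 62.2 and 60.5 CPM. Rps16 (395, 391, 175 and 447 CPM in the 4 controls and 268, 202, 389 and 267 CPM at 30 µM) followed too. Whether it shares reads with the copy Rps16-ps2 was not tested, so Rps16 is uncertain. Over the 46 lists, 15 members were higher and 41 lower past the adjusted p without number 4 (1.26% and 3.44% of 1191), beside 0.348% and 2.89% of all genes.

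Mitochondrial ribosomal RNA moved with this axis. mt-Rnr1 and mt-Rnr2 are the small and large ribosomal RNAs of the mitochondrion, and kits of the type used remove them, with cytoplasmic ribosomal RNA, before library preparation, so that what is counted is what was left. mt-Rnr2 (mitochondrial chromosome, 1094 to 2675, plus strand) stood at 5617, 5738, 1837 and 4662 CPM in the controls of numbers 2 to 5 and at 2140, 2358, 4378 and 1204 CPM at 30 µM. It was low at 30 µM in numbers 2, 3 and 5 and low in the control of number 4. mt-Rnr1 had the same order, at 457, 555, 120 and 405 CPM and at 166, 172, 322 and 83.2 CPM. The summed difference was -1.40, -1.32, 1.26 and -1.98 on the log2 scale. In the 10 µM libraries of numbers 2 to 5, on a scale set with those libraries included, mt-Rnr2 was at 3745, 2168, 2470 and 4049 CPM.

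**Figure D5:**
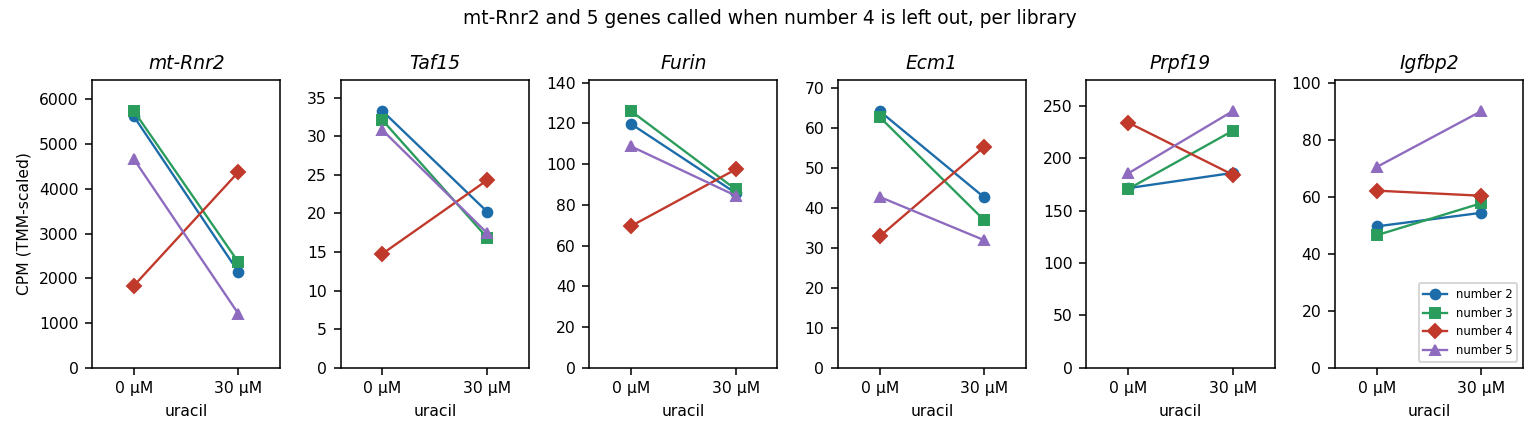
Level of mt-Rnr2, Taf15, Furin, Ecm1, Prpf19 and Igfbp2 in each library (y axis, TMM-scaled CPM from 0) without and with 30 µM uracil (x axis), with lines joining the libraries of a replicate number. In every panel the line of number 4 runs against those of numbers 2, 3 and 5, as for mt-Rnr2 (1837 to 4378 CPM in number 4 and 5617 to 2140 CPM in number 2).

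The level of mitochondrial rRNA was therefore added to the fit, a choice made after seeing the data, with both rRNA genes left out of the test. In a fit with the number as a block and no dose, 1519 of 13580 genes (11.2%) had a slope on its log2 level past an adjusted p of 0.05 in edgeR, 880 positive and 639 negative. With dose in the same fit, 368 genes had such a slope (281 positive and 87 negative), while dose itself had 1 gene past the adjusted p (340 at an unadjusted p under 0.05). That gene was Rn7s6, a 7S small RNA gene, at 12.1, 17, 24 and 19.2 CPM in the controls of numbers 2 to 5 and 11.5, 13.6, 11.2 and 13.2 CPM at 30 µM (log2 fold change -0.51 ± 0.14, SE, without the rRNA term, edgeR adjusted p = 0.931). With the rRNA term its log2 fold change was -0.72 and the edgeR adjusted p 0.0362. The rRNA level and the dose are tied in 3 of the 4 numbers, so in these libraries their parts cannot be told apart beyond these fits, and whether the rRNA level reflects its removal in the laboratory or its amount in the cells was not tested. Each of the 19 one-way genes described above kept its direction and an unadjusted p under 0.05 with the rRNA term, on the same libraries that chose them.

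Mitochondrial mRNAs shared part of the pattern. Of the 9 mitochondrially encoded protein genes tested, 8 estimates were lower at 30 µM and 1 higher, with 0 at an unadjusted p under 0.05, and the median difference was -0.17, -0.66, 0.37 and -1.15 in numbers 2 to 5. mt-Co1, a subunit of cytochrome oxidase and the most abundant of them, stood at 2654, 2485, 2506 and 2297 CPM in the controls and at 2632, 2386, 2703 and 1412 CPM at 30 µM, so that the 30 µM library of number 5 was low and the other 7 were within 2297 and 2703 CPM. mt-Nd6, a complex I subunit, was the one that passed the adjusted p without number 4, at -0.66 ± 0.14 (SE, edgeR adjusted p = 0.0107).

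Base composition and transcript length also moved with the numbers. Pearson's r over genes between the log2 difference and GC content was 0.115, 0.0769, -0.101 and 0.38 in numbers 2 to 5, and with the log2 transcript length it was -0.141, -0.0831, 0.0767 and -0.00296. With each library's trend on both removed, 0 genes passed the adjusted p over the 8 libraries (527 at an unadjusted p under 0.05) and 618 passed without number 4. Of these 259 were higher and 359 lower, against 48 and 399 without that step, so the balance of higher and lower calls depended on it. The number itself was the main axis of variation, since the first principal component held 46.8% of the variance, of which the number accounted for 98.1% and the dose for 0.409%. The second component held 14.1%, of which the number accounted for 24.0% and the dose for 26.0%.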

How the data were processed

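Total RNA of MEFs was sequenced from stranded libraries after removal of ribosomal RNA. The authors deposited raw counts, whole numbers of read pairs per Ensembl mouse gene and library, for all 18 libraries (0 columns matched no sample). The submitters' processing notes name FastQC, HISAT2, SAMtools 1.2 and HTSeq and a human genome build, although the gene identifiers are of mouse. The annotation release and strand setting are not given in the sources used here. GENCODE M39 (GRCm39) named 51731 of 55487 identifiers, and positions are on that build. Uncounted pairs, 35.5% to 45.4% of all pairs in the 8 libraries, stayed out of library sizes and tests. They include pairs aligned to several places, which lowers the counts of genes that have close copies.

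Libraries were grouped by dose and number in their labels. In R 4.3.3, edgeR 4.0.16 kept genes with filterByExpr, scaled libraries by TMM and fitted quasi-likelihood models with robust dispersion and the number as a block to 8 libraries, with a two-sided threshold of 0.05 after Benjamini-Hochberg adjustment. Standard errors are the log2 fold change over the root of its F statistic. Differences within a number use log2 CPM with a prior count of 2. DESeq2 1.42.0, limma voom (limma 3.58.1), other scalings, filters and sets of libraries were alternatives. The scripts were tested on simulated data. No 2 libraries held the same counts (at least 20487 genes differed in each of 28 pairs). Named genes are Fn1, Itga5, Itgb1, Upp1 and Tfrc, the 10 higher and 10 lower genes with the smallest p among those one way in 4 of 4 numbers with a mean of at least 1 CPM, and in each list the higher and lower member with the smallest p, of which a part is printed. Of the lower genes, 1 is not reported here. The members and lists were chosen with earlier results of these data known.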

Additional observations from a re-analysis of the deposited data

Results flagged for a closer look

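Within each group of 4 libraries, single values far from the other 3 were looked for with Dixon's ratio at its 95% level in 118 groups of values. Chance alone gives about 1 in 20. Most groups were of genes named for their values in these same libraries, so that rate need not hold for them. In all, 13 were found. In 8 of these the library was the 30 µM library of number 5. It had the lowest Fn1 (6415 CPM, others 7270 to 7410), Nexn (10.4 CPM, others 14.7 to 15.2) and Cmpk1 (57.6 CPM, others 68.9 to 71.2) of its group. It had the highest Eme1 (15.3 CPM, others 12 to 12.4), Gm24888 (15.3 CPM, others 7.63 to 8.84), Zfp12 (34.5 CPM, others 27.6 to 28.8) and Igfbp2 (90.2 CPM, others 54.5 to 60.5), and the largest share of unaligned pairs (3.59%, others 2.13% to 2.33%). Of its pairs, 13.1% were of too low alignment quality, also the most of its group (others 6.9% to 9.1%), though the ratio did not flag this. The control of number 5 stood apart in Gm24888 (9.89 CPM, others 6.77 to 6.99) and Arid4b (44.2 CPM, others 46.4 to 46.7).

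The 30 µM library of number 3 had the highest Dpysl4 (2.43 CPM, others 1.66 to 1.72) and the lowest Tex9 (4.57 CPM, others 6.06 to 6.35). The 30 µM library of number 2 had the most gene counts of its group (16.6 M, others 13.3 to 13.8 M).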

How the results depend on the processing

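The count of 0 genes past the adjusted p was also 0 without the replicate block, with DESeq2, limma voom, other scalings, a stricter filter, more libraries or no abundant genes. It was 5 with no filter on low counts: Snora73b higher, and Rn7s6, Gm23262, Gm24105 and 1 unnamed gene lower. Leaving out 1 number gave 0 to 447, and 447 came only without number 4. Of the settings chosen after seeing the data and without number 4, DESeq2 gave 113 (892 unadjusted), limma voom 388 (2460), the 10 µM libraries 293 (2609), removed GC and length trends 618 (2505; 259 of the 618 higher and 359 lower) and no replicate block 0 (884). The rRNA term gave 1 gene. The 482 genes at an unadjusted p (191 higher and 291 lower, of 13582 tested) became 163 without the block (66 and 97), 86 with DESeq2 (14 and 72) and 937 with all 18 libraries (486 and 451). With no filter there were 1017 of 26928 tested (266 and 751), and 215 to 2500 when 1 number was left out. The 1414 genes one way in 4 of 4, of 13582 tested, became 2566 of 26928 with no filter. This count was not made where numbers were added or left out.

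Same-numbered control and 30 µM libraries deviated together with r of 0.52, 0.38, 0.06 and 0.59 in numbers 2 to 5, so number 4 did not show the pairing and the labels do not state one. The control of number 4 correlated best with the 30 µM library of number 5 (r of 0.25). That of number 3 correlated best with the 30 µM library of number 2 (0.397, against 0.378 with its own). Of 761 values of single genes under the settings, 4 changed sign: Gm24888 with numbers 1 and 6 added (-0.093) or all 18 libraries (-0.096), Itgb1 (range -0.017 to 0.0087 when 1 number was left out) and Tfrc (-0.067 to 0.0040). With numbers 1 and 6 added, and so the libraries left out for their unaligned pairs, Tfrc was at -0.24. Another 22 passed the adjusted p, all without number 4, where 3.24% of all genes passed. Most of the single genes had been named for a small p in these same libraries. Of 318 list medians, 6 moved beyond the spread between numbers, all near 0. With 4 libraries a group, changes smaller than the intervals given could not be shown, and the cause of the difference between numbers, an exchange of labels in number 4 included, was not tested.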
